A study of Mus musculus with 18 samples.

Results

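The genes described here are 10 regulators of programmed cell death: 9 of the BCL2 family (Bcl2, Bcl2l1, Mcl1, Bcl2l11, Bmf, Bid, Bax, Bbc3 and Pmaip1) and Cflar, which encodes the caspase-8 inhibitor FLIP. They were chosen by name, and every probe set whose annotation gives 1 of these symbols alone was taken. This gave 33 probe sets for 9 of the 10 genes, out of 18193 genes named on the array. Bax is not analysed here. A probe set is a group of short probes that together measure a stretch of a transcript, and 31 of the 33 lay above the median of their array on at least 4 of 18 arrays and were tested. The remaining 2, 1440770_at of Bcl2 and 1426050_at of Bcl2l1, stood above the median on 1 and 0 arrays.

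The arrays hold total RNA of mouse immune cells, 6 arrays at time zero (control), 6 at 1 h and 6 at 4 h after treatment with a cell wall extract. The design text calls the mice knockouts, but the labels give no genotype, strain, age, cell type or microbial source of the extract for any group, so samples were compared by time. A code number closes each title. These numbers form 3 ranges, 12 to 22, 32 to 37 and 44 to 54, and every range includes 2 arrays per time. The labels do not say what the codes mean, nor whether the arrays of a time stand for different mice or cultures. A p-value here therefore covers just the spread among arrays, which can be technical.

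Mitochondrial apoptosis is set by the balance inside the BCL2 family. Bcl2, Bcl2l1 (BCL-XL) and Mcl1 hold the mitochondrial outer membrane closed, while the BH3-only proteins, named for the short helix that they share with the rest of the family, bind the survival proteins or activate the pore formers. FLIP works in the other pathway to death, where it sits beside caspase-8 at death receptors and keeps it from full activation; it is made in long and short forms by splicing. In macrophages several of these genes are known targets of NF-kB, of FOXO factors or of p53, and microbial stimuli are known to alter their transcripts.

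All 10 macrophage markers chosen for the check were measured, among them Adgre1, Csf1r and Cd68, and their mean log2 value lay between 13.06 and 13.71 on single arrays. Fewer markers of other cells were tested: 2 of 8 for T cells, 2 of 6 for B cells, 1 of 5 for NK cells, 2 of 6 for dendritic cells and 2 of 6 for erythroid cells. No probe set of a single symbol existed for 1 T cell, 1 B cell, 1 NK cell, 2 erythroid and 2 neutrophil markers. The rest of those not tested had too little signal for the filter. Of the neutrophil and stromal (fibroblast) markers 7 of 12 and 7 of 8 passed, and no member of these 2 lists changed between times. At 4 h against 0 h, 1 of the 2 tested T cell markers fell (list mean log2 from 8.19 ± 0.49 to 7.27 ± 0.73; SD, n = 6), as did 1 of the 2 B cell markers (7.35 ± 0.42 to 6.57 ± 0.40), and of the macrophage markers 2 rose and 1 fell (13.51 ± 0.09 to 13.29 ± 0.21). The part of these shifts in the 4 h changes given below was not tested. The ranges of array codes differed in both lists: the mean log2 stromal level was 7.36 ± 0.19 (SD, n = 6), 9.12 ± 0.29 and 10.63 ± 0.15 in the ranges 12 to 22, 32 to 37 and 44 to 54, and the neutrophil level 8.91 ± 0.22, 8.14 ± 0.27 and 7.10 ± 0.33. In RNA of whole samples, fewer cells of a type and less RNA per cell cannot be told apart. In addition, t1h replicate 6 (code 14), stood close to the time zero arrays in several members, and its values are given where results rest on it.

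Promoter sequence is shown for the 4 genes on which the results turn, so that a reader can see the DNA next to the changes described below. Each line is the 250 bases before a transcription start, 5′ to 3′ on the gene's strand, from RefSeq in the build GRCm38.p6. Capitals mark a match, on either strand, to the NF-kB consensus motif or to the FOXO motif GTAAACA. The windows are chr1:58711241-58711490 (plus strand) for Cflar, chr2:118549687-118549936 (minus strand) for Bmf, chr2:128125788-128126037 (plus strand) for Bcl2l11 and chr2:152830718-152830967 (minus strand) for Bcl2l1.
Cflar: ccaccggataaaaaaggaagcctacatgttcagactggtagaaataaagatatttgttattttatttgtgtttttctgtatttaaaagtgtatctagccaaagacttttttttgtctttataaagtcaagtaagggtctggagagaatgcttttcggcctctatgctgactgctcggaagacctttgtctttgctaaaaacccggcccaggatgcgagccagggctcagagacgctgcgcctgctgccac
Bmf: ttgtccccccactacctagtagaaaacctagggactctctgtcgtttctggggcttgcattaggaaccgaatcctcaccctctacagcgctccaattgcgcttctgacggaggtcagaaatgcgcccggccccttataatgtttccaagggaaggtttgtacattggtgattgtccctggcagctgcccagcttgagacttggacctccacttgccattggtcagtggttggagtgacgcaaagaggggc
Bcl2l11: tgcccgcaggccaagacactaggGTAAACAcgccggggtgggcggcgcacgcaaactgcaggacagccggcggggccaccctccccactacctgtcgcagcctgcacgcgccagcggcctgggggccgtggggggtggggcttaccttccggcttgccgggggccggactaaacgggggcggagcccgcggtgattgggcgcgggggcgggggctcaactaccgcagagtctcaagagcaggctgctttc
Bcl2l1: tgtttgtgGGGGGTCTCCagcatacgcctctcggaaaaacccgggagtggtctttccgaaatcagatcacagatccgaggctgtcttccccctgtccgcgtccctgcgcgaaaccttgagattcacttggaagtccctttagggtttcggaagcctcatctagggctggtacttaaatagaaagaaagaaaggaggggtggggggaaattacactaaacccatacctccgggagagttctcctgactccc
The Bcl2l11 window shown held GTAAACA on its plus strand, 220 bases before the start, and the Bcl2l1 window shown held an NF-kB match 232 bases before the start. These windows were picked because they hold a match: the other Bcl2l11 window and the other 2 Bcl2l1 windows in the table held neither motif. The single Cflar window and all 3 Bmf windows held neither. Of the 15 windows in the table for 8 members, 2 held the FOXO motif (Bcl2l11 and Bbc3) and 2 the NF-kB motif (Bcl2l1 and Bbc3). Over all 32851 windows of the same length the shares were 3.17% and 3.9%. The motifs do not overlap in these windows, and a match is a description of letters only.

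Cflar had the largest rise among the members. Of its 5 probe sets, 4 rose by 4 h, between 5.58-fold and 17.6-fold, and 3 had already risen at 1 h. Leaving out the arrays of codes 32 to 37 or of 44 to 54 ended all 3 calls at 1 h, with 4 arrays a time left. The remaining probe set, 1453482_at, was dim and went the other way between 1 h and 4 h. The signals below are linear intensities as deposited, and 16 was added to each before taking log2, so that fold changes of dim probe sets come out too small.

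For 1449317_at the lowest, median and highest signals were 175, 286 and 429 at 0 h, 503, 1289 and 1650 at 1 h, and 2471, 5007 and 12018 at 4 h. No array of a time overlapped with those of another time. The log2 fold change was 1.94 ± 0.36 (SE) at 1 h (limma, adjusted p = 0.0120), 4.14 ± 0.36 at 4 h (limma, adjusted p = 2.48e-07) and, for the later step alone, 2.20 ± 0.36 (limma, adjusted p = 2.70e-04). This probe set thus rose in both steps, and within the 3 ranges of array codes the 4 h value was 4.53, 3.84 and 4.05.

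For 1424996_at, the brightest Cflar probe set by mean log2 value, the signals were 590, 753 and 1155 at 0 h, 595, 3586 and 5110 at 1 h, and 5735, 6857 and 9774 at 4 h. All 6 arrays at 4 h stood above every array at 1 h, while the lowest 1 h array, t1h replicate 6, lay inside the 0 h values. The log2 fold change was 1.70 ± 0.38 at 1 h (limma, adjusted p = 0.0457), and without that array it was 2.12 (limma, adjusted p = 3.48e-05). By 4 h the rise had reached 3.11 ± 0.38 (limma, adjusted p = 9.50e-06) and its part from 1 h to 4 h was 1.42 ± 0.38 (limma, adjusted p = 0.0115). The 1 h call was close to the threshold: it was lost in 22 of 30 other settings, with adjusted p by limma up to 0.807.

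For 1425687_at the signals were 121, 175 and 202 at 0 h, 169, 717 and 1078 at 1 h, and 657, 1047 and 1224 at 4 h, so that only the lowest 1 h array reached the 0 h values. Its log2 fold changes at 1 h and at 4 h were 1.76 ± 0.33 (limma, adjusted p = 0.0116) and 2.48 ± 0.33 (limma, adjusted p = 1.87e-05). The value between 1 h and 4 h, 0.72 ± 0.33, did not pass (limma, adjusted p = 0.122). For 1425686_at the signals were 366, 542 and 852 at 0 h, 350, 2153 and 3767 at 1 h, and 1641, 3781 and 5284 at 4 h. The 4 h arrays were clear of the 0 h arrays, and the rise at 4 h was 2.65 ± 0.47 (limma, adjusted p = 3.38e-04). At 1 h it stood 1.60 ± 0.47 higher on the log2 scale (limma, adjusted p = 0.198), and without t1h replicate 6 it was 2.04 (limma, adjusted p = 0.00457). From 1 h to 4 h it gave 1.05 ± 0.47 (limma, adjusted p = 0.117, and 0.0437 with code range as a blocking factor).

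The fifth probe set, 1453482_at, lay near the array medians. Its signals were 24.8, 108 and 131 at 0 h, 107, 151 and 176 at 1 h, and 51.5, 68.6 and 123 at 4 h. Of the 6 arrays at 4 h, 5 lay below all of the 1 h arrays, and the log2 fold change between these times was -0.90 ± 0.26 (limma, adjusted p = 0.0171), a call that quantile normalization and centring on array medians each ended. Against 0 h the values were 0.60 ± 0.26 at 1 h (limma, adjusted p = 0.645) and -0.30 ± 0.26 at 4 h (limma, adjusted p = 0.400). The 4 h value rests on t0 replicate 2, the array at 24.8: without it the log2 fold change was -0.58, a called fall (limma, adjusted p = 0.0156). Across the 18 arrays the log2 values of the other 4 probe sets correlated with each other at Pearson r from 0.81 to 0.97, whereas 1453482_at correlated with them at -0.13 to -0.02; these are descriptions over shared arrays.

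**Figure D1:**
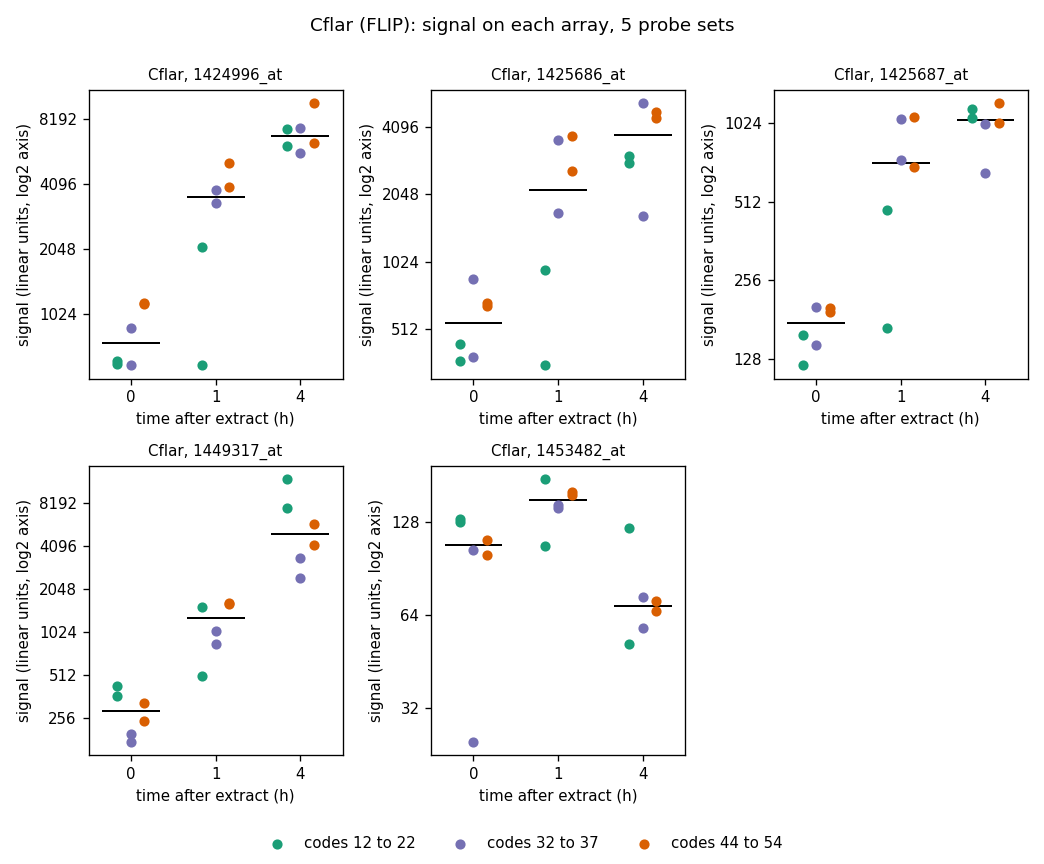
Signal of the 5 Cflar probe sets on each of the 18 arrays (vertical axis, linear signal on a log2 axis) at 0 h, 1 h and 4 h, with colours for the ranges of array codes and black lines at the median of 6 arrays. The first 4 panels rise to 4 h, with medians from 175 to 1047 for 1425687_at and from 286 to 5007 for 1449317_at, while 1453482_at has medians of 108, 151 and 68.6.

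The disagreement was tested within arrays, by taking the log2 value of 1424996_at minus that of each other Cflar probe set and comparing times with an exact two-sided permutation test, adjusted over the 12 such tests. It was already known that the probe sets disagree, so the choice of the test is not independent of the result. The gap between 1424996_at and 1453482_at went from 2.92 ± 0.93 (SD, n = 6) at 0 h to 4.02 ± 0.97 at 1 h and 6.33 ± 0.48 at 4 h. It widened by 3.42 from 0 h to 4 h (exact p = 0.00216, the smallest that 6 against 6 allow; adjusted p = 0.0130) and by 2.31 from 1 h to 4 h (exact p = 0.00216, adjusted p = 0.0130). The gap to 1425687_at widened by 0.63 from 0 h to 4 h (exact p = 0.00649, adjusted p = 0.0260) and by 0.70 from 1 h (exact p = 0.0108, adjusted p = 0.0325), and neither passed after quantile normalization (exact permutation test, adjusted p = 0.104 for both). The 4 h change against 1449317_at was -1.03 (exact p = 0.0411, adjusted p = 0.0987), and that against 1425686_at was 0.46 (exact p = 0.0693, adjusted p = 0.119). Which Cflar transcript forms each probe set measures is not given in the sources used here.

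Bmf, a BH3-only gene whose protein binds survival members of the family, had the largest fall. Its 3 probe sets all fell by 4 h, by log2 fold changes of -3.32, -2.10 and -1.23. They stood above the array median on 16, 4 and 8 of 18 arrays, in that order. The falls of -2.10 and -1.23 are descriptions only, because those probe sets met the filter through their high 0 h arrays. For 1454880_s_at the lowest, median and highest signals were 779, 1088 and 1864 at 0 h, 491, 737 and 934 at 1 h, and 46.5, 118 and 175 at 4 h. All 4 h arrays lay below all earlier arrays. The fall at 4 h was -3.32 ± 0.27, or 10.02-fold (limma, adjusted p = 9.96e-08), with -3.20, -3.48 and -3.30 within the 3 ranges. From 1 h to 4 h it was -2.64 ± 0.27 (limma, adjusted p = 2.18e-06). At 1 h the value of -0.68 ± 0.27 did not pass (limma, adjusted p = 0.520).

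The probe set 1422995_at, which was above the array median on 4 of 18 arrays only, had signals of 88.6, 118 and 142 at 0 h, 10.8, 56.1 and 86.2 at 1 h, and 3.10, 17.8 and 32.5 at 4 h. No array at 1 h or 4 h reached the 0 h values. All 4 arrays above the median were 0 h arrays, so this probe set was tested only because it was high at 0 h. Its fall and its lack of overlap are therefore given as descriptions only. Its log2 fold change was -2.10 ± 0.29 at 4 h (limma, adjusted p = 3.10e-05) and -0.99 ± 0.29 at 1 h (limma, adjusted p = 0.198). The dim 1458325_x_at had signals of 17.1 to 159 at 0 h and 10.4 to 119 at 4 h, which overlap, and its fall of -1.23 ± 0.45 (limma, adjusted p = 0.0408) was lost in 15 of 29 other settings. All 0 h arrays but t0 replicate 5 were at 126 to 159, above the highest array median at 0 h and 1 h, 108.1. Without them this probe set, above the median on 8 of 18 arrays, would have missed the filter. Its fall is thus a description only as well. The table holds no detection calls, so the lowest of these signals may be at background.

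Bcl2l11 encodes BIM, a BH3-only protein that binds all survival members of the family. Of its 5 probe sets, 4 had their highest mean log2 value at 1 h, and for 2 of these the later step, a fall to 4 h, passed the test. For 1456005_a_at the signals were 7164, 8240 and 10546 at 0 h, 9357, 15674 and 18131 at 1 h, and 6013, 9311 and 11782 at 4 h. At 1 h 5 of the 6 arrays lay above all others, and the lowest was t1h replicate 6. The log2 fold change at 1 h was 0.77 ± 0.19 (limma, adjusted p = 0.0765), from 1 h to 4 h it was -0.75 ± 0.19 (limma, adjusted p = 0.00745), and at 4 h against 0 h it was 0.02 ± 0.19 (limma, adjusted p = 0.951).

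The probe set 1456006_at fell by 0.55 ± 0.19 from 1 h to 4 h (limma, adjusted p = 0.0438), a call that 19 of 30 other settings lost. Its 1 h arrays, at 1106 to 2238, did not overlap with the 0 h arrays, at 814 to 992, and the value of 0.69 ± 0.19 had adjusted p = 0.159 by limma and 0.0397 with the code range as a block. With signals of 3121 to 3691 at 0 h and 3338 to 8324 at 1 h, 1435448_at overlapped in its lowest array and gave 0.78 ± 0.23 (limma, adjusted p = 0.183). The other 2 Bcl2l11 probe sets, 1435449_at and 1426334_a_at, did not pass in any comparison of times, with 1 h values of 0.48 ± 0.23 and 0.32 ± 0.39. Centring each array on its median took away both calls between 1 h and 4 h.

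Bid encodes a BH3-only protein that caspase-8 cleaves to link death receptors to mitochondria. For 1417045_at the signals were 1038, 1111 and 1500 at 0 h, 768, 935 and 1333 at 1 h, and 907, 2365 and 2958 at 4 h. The 2 arrays of the range 12 to 22 at 4 h, at 907 and 1155, lay among the earlier values, while the other 4, at 2023 to 2958, lay above every earlier array. The rise from 1 h to 4 h was 0.99 ± 0.26 (limma, adjusted p = 0.00887). Against 0 h the 4 h value was 0.67 ± 0.26 (limma, adjusted p = 0.0540), and with the code range as a block it passed (adjusted p = 0.0198).

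Split by code, the 4 h change of 1417045_at against 0 h was -0.05 at 12 to 22, 0.99 at 32 to 37 and 1.06 at 44 to 54. The difference between ranges was not called (limma F-test, adjusted p = 0.254). In simulated data this test, at 4 h, recovered 0% of 2-fold differences in response, 20% of 4-fold ones and 52% of 8-fold ones. The simulated spread was taken around time means and so included differences between ranges, which the model of this test takes out. On the real arrays recovery may thus be higher than these shares. With 2 arrays per time and range, the lack of a call does not decide whether the Bid response differed between ranges. A further Bid probe set, 1447873_x_at, had 4 h changes against 0 h of -0.02, 1.16 and 0.78 in these ranges. It rose by 0.78 ± 0.25 from 1 h to 4 h (limma, adjusted p = 0.0265), a call that 8 of 30 other settings lost. Its 4 h value against 0 h, 0.64 ± 0.25, passed with the block only (limma, adjusted p = 0.0537 without and 0.0407 with it). The third, 1448560_at, had -0.32, 0.48 and 0.82 and did not pass from 1 h to 4 h (1.17 ± 0.45; limma, adjusted p = 0.0686), but passed with code range as a blocking factor (limma, adjusted p = 0.0492). The stromal and neutrophil levels that differ between these ranges are given above, and their part in the Bid values was not tested.

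Bbc3 and Pmaip1 encode PUMA and NOXA, BH3-only proteins known as p53 targets, and each had 1 probe set. Bbc3 had signals of 272, 307 and 517 at 0 h, 197, 308 and 605 at 1 h, and 159, 212 and 284 at 4 h. The arrays at 4 h overlapped with the lowest at 0 h, and the 4 h value was -0.64 ± 0.25 (limma, adjusted p = 0.0586; 0.0166 with the code range as a block). Within the ranges it was -1.08, -0.13 and -0.72. From 1 h to 4 h Bbc3 had -0.61 ± 0.25 (limma, adjusted p = 0.0900, and 0.0273 with the block). Pmaip1 had signals of 318, 634 and 1085 at 0 h, 436, 1020 and 1850 at 1 h, and 335, 609 and 719 at 4 h, with wide overlap. Its values were 0.72 ± 0.33 at 1 h (limma, adjusted p = 0.700) and -0.89 ± 0.33 from 1 h to 4 h (limma, adjusted p = 0.0601). With the code range as a block both passed (limma, adjusted p = 0.0485 and 8.63e-04), and within the ranges the 1 h values were 0.74, 0.59 and 0.84 and those from 1 h to 4 h were -0.80, -0.99 and -0.87.

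**Figure D2:**
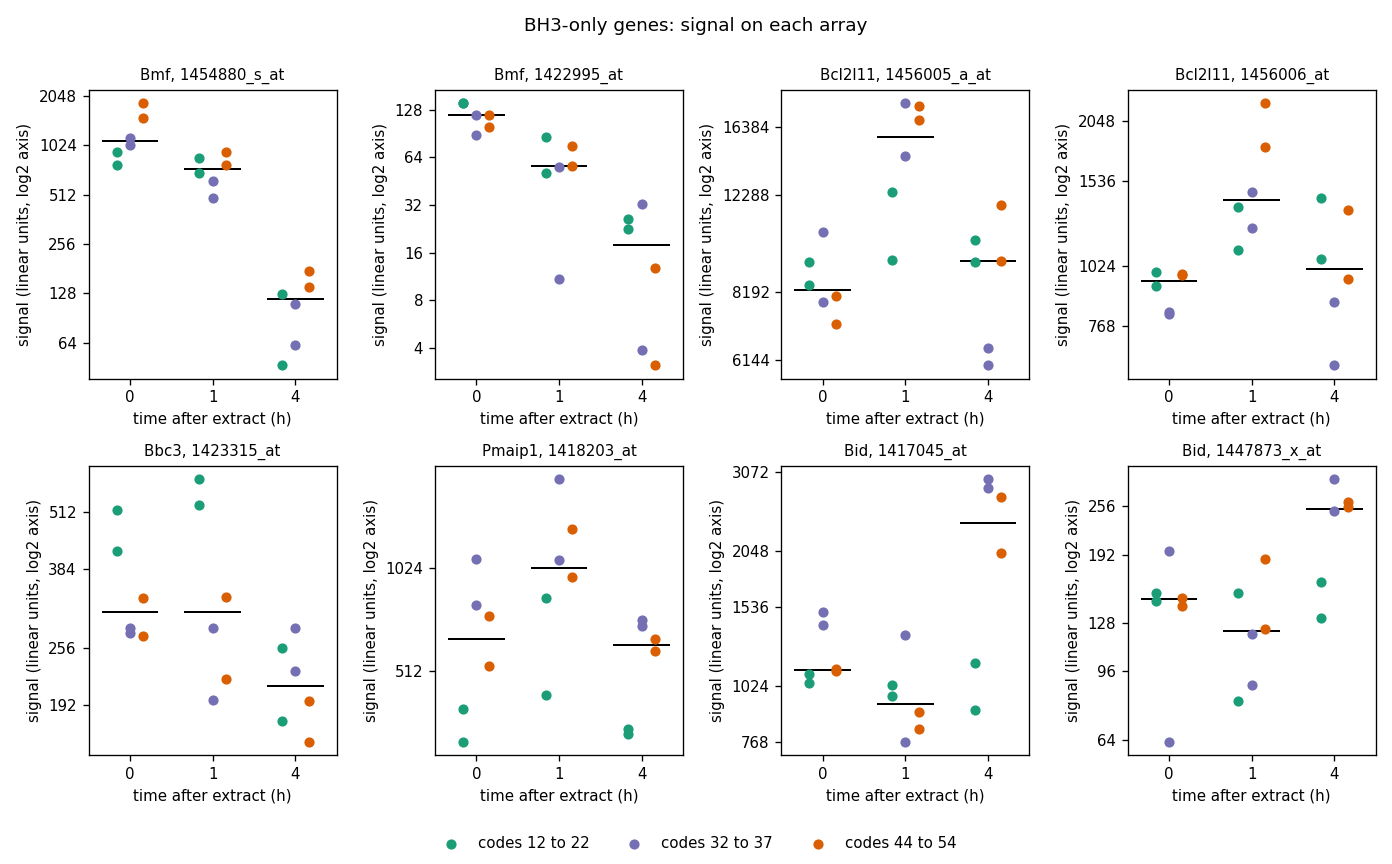
Signal of 8 probe sets of BH3-only genes, those with the lowest p per gene, on each of the 18 arrays (linear signal on a log2 axis) at 0 h, 1 h and 4 h, coloured by range of array codes, with black lines at medians of 6 arrays. The median of Bmf 1454880_s_at drops from 1088 to 118 by 4 h, Bcl2l11 1456005_a_at has its highest median, 15674, at 1 h, and the 2 arrays of codes 12 to 22 at 4 h stay at 907 and 1155 for Bid 1417045_at.

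Among the survival genes, Bcl2l1 rose late. For 1420888_at the signals were 316, 532 and 775 at 0 h, 294, 563 and 703 at 1 h, and 927, 1423 and 2116 at 4 h. The 4 h arrays stood above all others. The log2 fold change was -0.01 ± 0.24 at 1 h (limma, adjusted p = 1.000), 1.41 ± 0.24 at 4 h (limma, adjusted p = 2.32e-04) and, for the later step alone, 1.42 ± 0.24 (limma, adjusted p = 3.33e-04). The dimmer 1426191_a_at had medians of 52.4, 42.9 and 118. It rose by 1.28 ± 0.38 at 4 h (limma, adjusted p = 0.0156). From 1 h to 4 h its rise was 1.55 ± 0.38 (limma, adjusted p = 0.00649). It stood above the array median on 7 arrays. All 4 h arrays were among them, at 91.4 or more against a highest 4 h array median of 87.5. Without them it would have missed the filter, so both rises are descriptions only. Within the ranges the 4 h value against 0 h was 2.20, 1.42 and 0.22. That call was lost without the range 12 to 22 or 32 to 37. For 1420887_a_at the 4 h value was 0.70 ± 0.39 (limma, adjusted p = 0.177), and the rise from 1 h, 1.26 ± 0.39, passed (limma, adjusted p = 0.0229). That call was lost in 6 of 30 other settings, among them leaving out t1h replicate 4, t4h replicate 3 or t4h replicate 4, and range by range the value was 0.07, 2.75 and 0.95.

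Mcl1, whose protein turns over quickly, was bright at every time and moved little. The medians of 1448503_at were 16474, 22432 and 20590 at 0 h, 1 h and 4 h, within ranges that overlap. At 1 h its 6 probe sets had log2 fold changes from 0.33 to 0.44, none past the threshold (limma, adjusted p from 0.365 to 0.944). At 4 h 1 of 6 rose, 1416881_at, by 0.63 ± 0.22 (limma, adjusted p = 0.0348), with signals of 3525, 4438 and 7692 at 0 h and 5461, 7454 and 11474 at 4 h, and 12 of 30 other settings lost this call. The other 5 had 4 h values from 0.16 to 0.34. When code range was a blocking factor, 1416880_at (adjusted p = 0.0190) and 1448503_at (adjusted p = 0.0336) also passed by limma at 4 h.

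Bcl2, the founding member of the family, gave low signals on these arrays. Its probe set 1457687_at had signals of 60.6, 169 and 230 at 0 h, 94.1, 182 and 431 at 1 h, and 154, 288 and 408 at 4 h. These overlap, and the rise at 4 h of 0.92 ± 0.33 (limma, adjusted p = 0.0390) was lost in 10 of 30 other settings. With the code range as a block its adjusted p by limma was 7.19e-04, and its value from 1 h to 4 h, 0.53, passed too (limma, adjusted p = 0.0308 against 0.261 without the block). The other 3 tested Bcl2 probe sets had 4 h values from 0.69 to 0.84 that did not pass (limma, adjusted p from 0.107 to 0.146), of which 1443837_x_at, at 0.69, passed with the block (limma, adjusted p = 0.00895). In addition, 1422938_at rose by 1.63 ± 0.41 between 1 h and 4 h (limma, adjusted p = 0.00734) at signals of 9.09 to 169. It stood above the array median on 5 arrays. Among these were the 4 h arrays at 111 to 169, above the highest 4 h array median of 87.5. Without them it would have missed the filter, so this rise is a description only. The call was lost without the range 12 to 22 or 44 to 54.

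**Figure D3:**
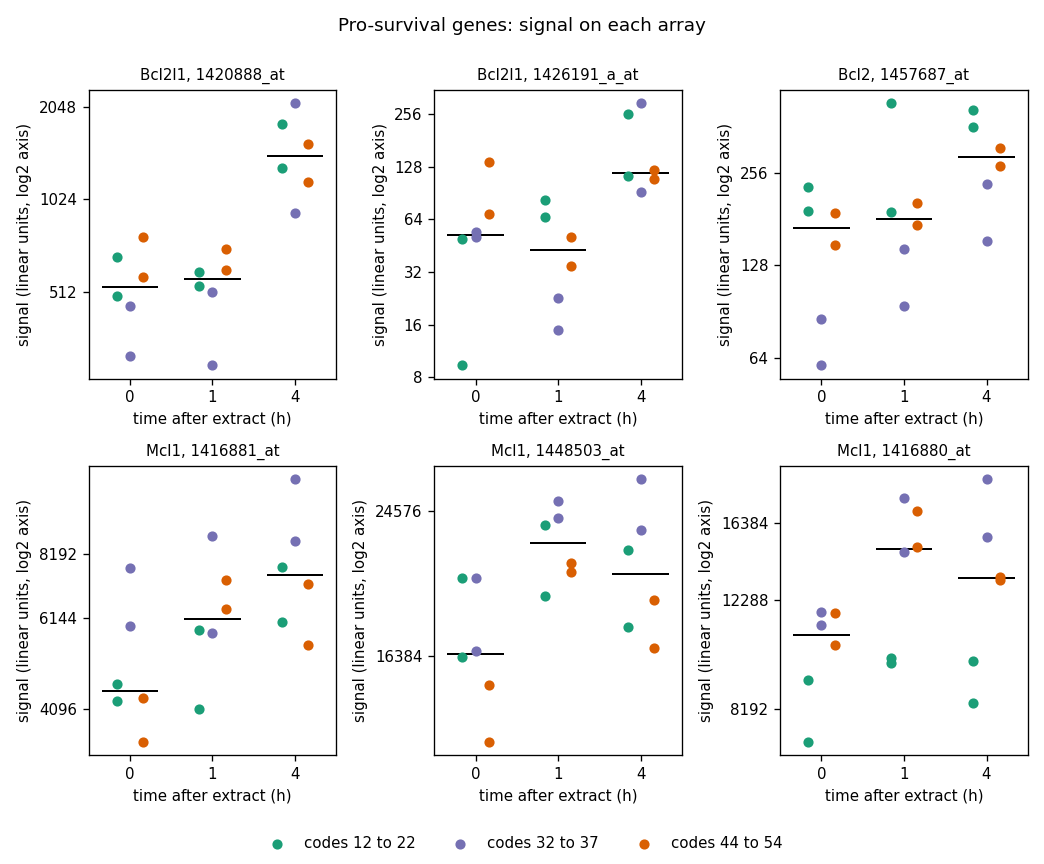
Signal of 6 probe sets of Bcl2l1, Bcl2 and Mcl1, those with the lowest p at 4 h, on each of the 18 arrays (linear signal on a log2 axis) at 0 h, 1 h and 4 h, coloured by range of array codes, with black lines at medians of 6 arrays. The lowest 4 h array of Bcl2l1 1420888_at, at 927, lies above the highest 0 h array, at 775, while the Mcl1 panels overlap between times.

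Counted over the 31 tested member probe sets, 3 changed at 1 h, all of Cflar and all upward, beside 0.752% of all 25804 tested probe sets (0.612% upward and 0.140% downward; limma, adjusted p 0.05 throughout). At 4 h against 0 h, 8 rose and 3 fell, 35.5% together, beside 33.1% of all, so that this share lies near the background. For rises alone the background was 9.93%, and for falls 23.1%. Between 1 h and 4 h, 8 rose and 5 fell, 41.9% together, beside 24.4% of all, of which 7.70% rose and 16.7% fell. Some of these calls are descriptions only, because the probe set met the filter through a time at which it was high. At 4 h against 0 h they are Bmf 1422995_at and 1458325_x_at and Bcl2l1 1426191_a_at. Between 1 h and 4 h they are Bmf 1422995_at, Bcl2l1 1426191_a_at and Bcl2 1422938_at. The median log2 fold change of the 31 was 0.34 at 4 h against 0 h, and that of all tested probe sets was -0.22. Centring each array on its median, which removes that shift, gave 14 rises and 2 falls at 4 h (background 16.3% rose and 10.4% fell) and 10 rises and 1 fall between 1 h and 4 h (background 13.4% and 7.36%). Quantile normalization gave 11 and 2 at 4 h (background 12.3% and 15.0%) and 9 and 3 between 1 h and 4 h (background 9.31% and 10.4%). With the code range as a block, 5 rose at 1 h and 13 rose and 4 fell at 4 h (background 1.31% at 1 h, with 1.03% upward, and 42.9% at 4 h, with 12.6% upward and 30.3% downward). As probe sets of a gene share their target, these are not counts of genes: the calls at 4 h fall on 5 genes.

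**Figure D4:**
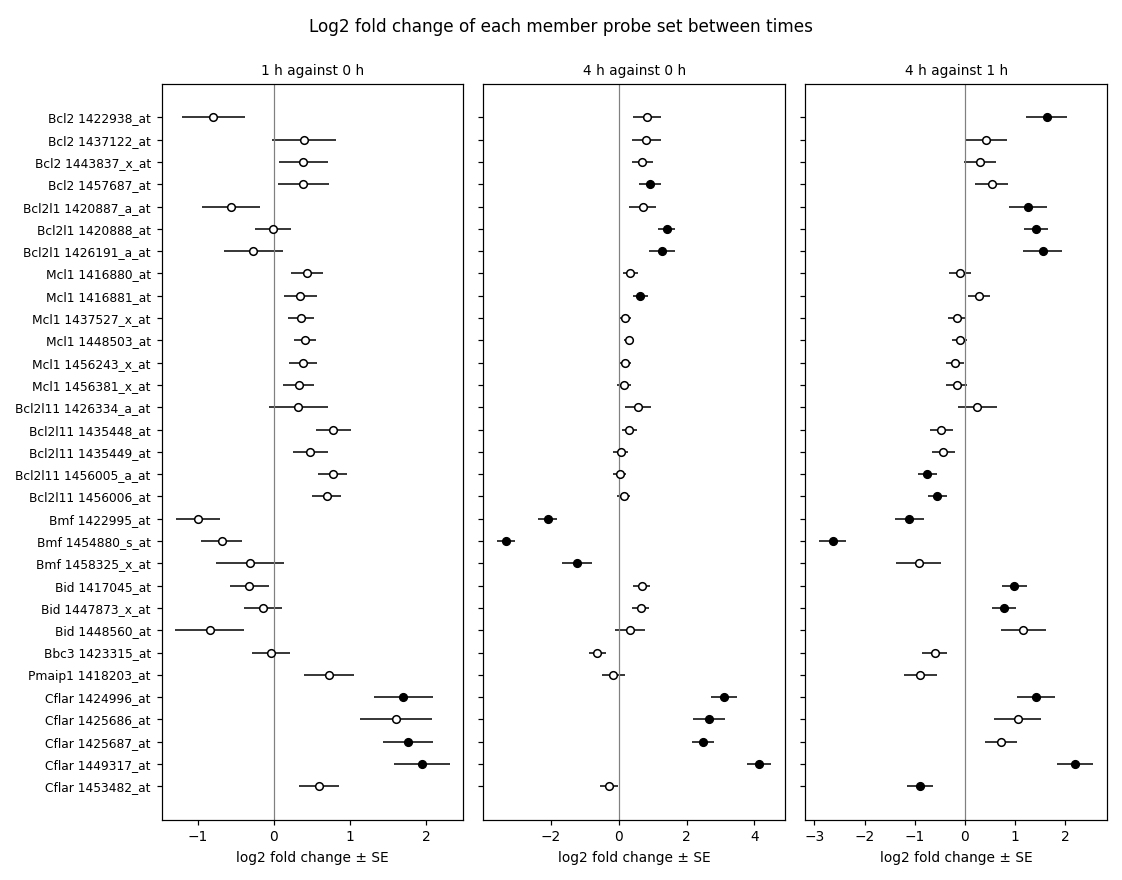
Log2 fold change ± SE of the 31 tested member probe sets at 1 h against 0 h, 4 h against 0 h and 4 h against 1 h (horizontal axes); filled points passed adjusted p 0.05 by limma. The filled points at 1 h are 3 Cflar probe sets, and at 4 h those left of 0 are the 3 Bmf probe sets, from -3.32 to -1.23. The filled points of Bmf 1422995_at and 1458325_x_at, Bcl2l1 1426191_a_at and Bcl2 1422938_at are descriptions only.

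The levels of several members differed between the ranges of array codes, which was tested with time as a term in the model. Mcl1 was higher in the range 32 to 37 than in 12 to 22 by 5 of 6 probe sets, with log2 differences from 0.19 to 0.72 over the 6. It was higher in 44 to 54 than in 12 to 22 by 4 of 6, with differences from -0.19 (1448503_at, not called) to 0.57. In 44 to 54 against 32 to 37, 1448503_at and 1416881_at were lower, at -0.37 and -0.51 (limma, adjusted p = 0.0280 and 0.0421). For 1416880_at the signals over all times were 7232, 9402 and 9898 in the range 12 to 22, 11170, 15120 and 19258 in 32 to 37, and 10391, 13316 and 17112 in 44 to 54. Every array of 12 to 22 lay below every other array, with differences of 0.72 ± 0.11 (limma, adjusted p = 3.81e-04) and 0.57 ± 0.11 (limma, adjusted p = 0.00171). Pmaip1 was also higher in 32 to 37, by 1.19 ± 0.17 (limma, adjusted p = 2.43e-04), and in 44 to 54, by 0.83 ± 0.17 (limma, adjusted p = 0.00295).

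Bcl2 went the other way in the range 32 to 37, with 1457687_at at 60.6 to 234 against 191 to 431 in 12 to 22. The difference was -1.17 ± 0.18 (limma, adjusted p = 4.40e-04), and 1443837_x_at gave -1.07 ± 0.19 (limma, adjusted p = 0.00146). The Bcl2 probe sets 1422938_at and 1437122_at did not pass, at -0.61 and -0.65 (limma, adjusted p = 0.312 and 0.286). Bbc3 was lower in 44 to 54 than in 12 to 22 by 0.63 ± 0.20 (limma, adjusted p = 0.0369), a call lost in 9 of 25 other settings. For Cflar, 1424996_at and 1425686_at were higher in 44 to 54 than in 12 to 22, by 1.04 ± 0.31 and 1.26 ± 0.38 (limma, adjusted p = 0.0279 and 0.0297), and 5 of 25 other settings ended each call. The Cflar probe sets 1425687_at, 1449317_at and 1453482_at did not pass, at 0.67, -0.17 and -0.09 (limma, adjusted p = 0.131, 0.738 and 0.842). The range 12 to 22 includes t1h replicate 6, at 595 for 1424996_at. The 1 h change of 1424996_at was 0.85 in 12 to 22 and 1.96 in 44 to 54, and its 4 h change 3.43 and 2.76. Bmf 1454880_s_at was higher in 44 to 54 than in both other ranges, by 0.66 ± 0.20 and 0.68 ± 0.20 (limma, adjusted p = 0.0318 and 0.0299), calls lost in 9 and 7 of 25 other settings, centring on array medians among them.

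Over the 31 probe sets, 7 were higher and 2 lower in 32 to 37 than in 12 to 22 (background 17.8%, with 9.65% higher and 8.12% lower). In 44 to 54 against 12 to 22 the counts were 8 and 1 (background 19.1%, with 10.5% higher and 8.66% lower). In 44 to 54 against 32 to 37 they were 4 and 2 (background 17.1%, with 8.87% higher and 8.25% lower). The last split was 2 and 4 when arrays were centred on their medians (background 5.84% higher and 12.2% lower) and 4 and 0 after quantile normalization (background 8.08% and 9.09%). The first was 6 and 3 after quantile normalization (background 9.17% and 9.02%). Without t0 replicate 1, 2 or 4 or t4h replicate 3 the last count was 3, and without t4h replicate 4 it was 2. The stromal and neutrophil markers move with the same ranges, with 7 of 7 stromal markers higher and 6 of 7 neutrophil markers lower in 44 to 54 than in 12 to 22. In that comparison 1 of 2 T cell markers was higher and 1 of 2 B cell markers lower. Of the 10 macrophage markers 1 was higher and 1 lower. The part of all these markers in the differences between ranges was not tested. Whether the response to the extract differed between ranges was tested too (limma F-test). At 4 h 0 of 31 member probe sets were called (background 0.837%), and at 1 h 0 of 31 (background 0%). At an unadjusted p under 0.05 there were 2 of 31 at 4 h, beside 2653 of all 25804. At 1 h there were 4 of 31, beside 919 of 25804. This test recovered few simulated differences of 4-fold or less at 4 h, as given with Bid above, so these counts do not show that responses were alike.

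**Figure D5:**
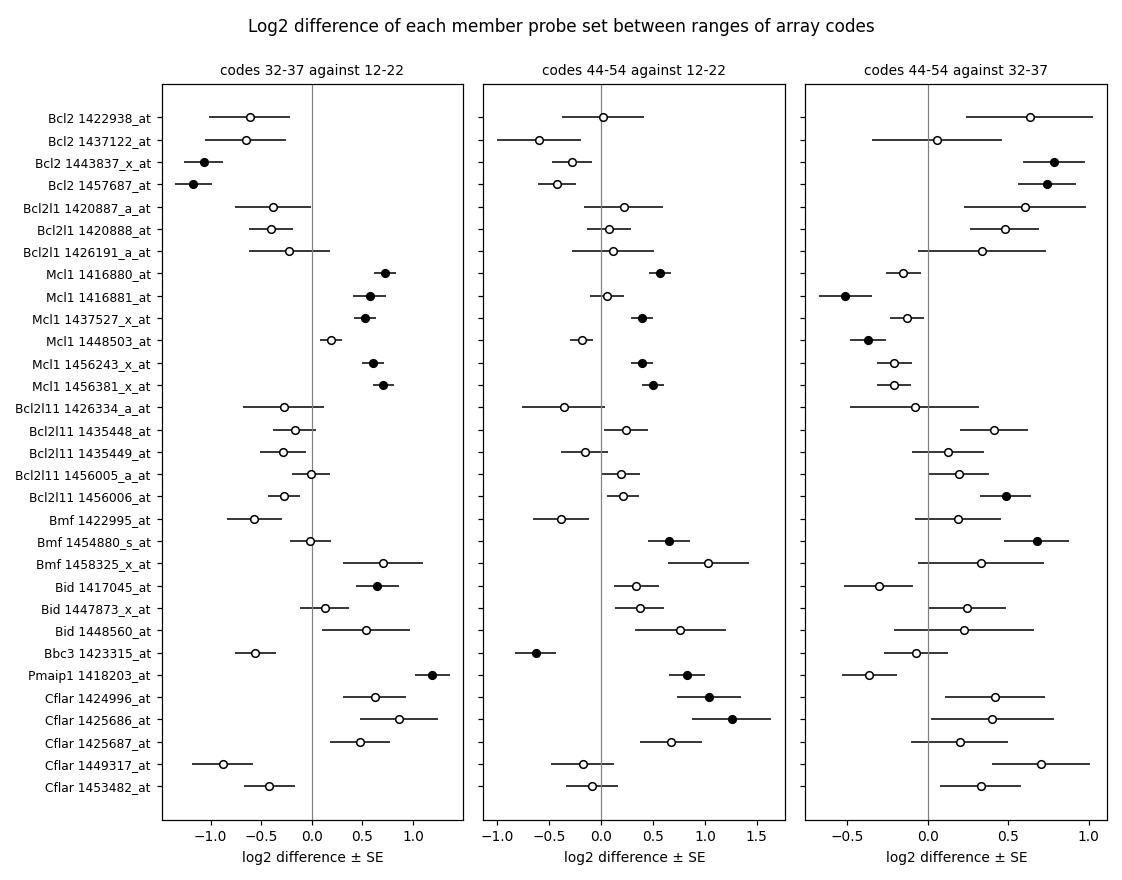
Log2 difference ± SE of the 31 tested member probe sets between ranges of array codes, 32-37 against 12-22, 44-54 against 12-22 and 44-54 against 32-37 (horizontal axes), with time in the model; filled points passed adjusted p 0.05 by limma. Of the Mcl1 probe sets 5 of 6 are filled at the right of 0 in the first panel, and Pmaip1 stands at 1.19 and 0.83 in the first 2 panels.

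The rest of the pathway was described with lists of genes, by the brightest tested probe set of each gene, and the counts at 4 h are to be read beside the 33.1% of all tested probe sets that were called (9.93% rose and 23.1% fell). Of the other BCL2 family genes 8 of 16 were measured, none changed at 1 h, and at 4 h 1 rose and 2 fell, 37.5% together. With code range as a blocking factor 2 rose and 3 fell, beside 42.9% of all tested probe sets with that block (12.6% rose and 30.3% fell). The added genes were Bak1, a pore former, at 0.56 (limma, adjusted p = 0.00395), and Bad, a BH3-only gene, at -0.51 (limma, adjusted p = 0.00159). Both were named after their values were seen. Bnip3, a mitochondrial BH3-like gene, rose by 1.04 ± 0.27 (limma, adjusted p = 0.00710), and Bcl2l13 and Bcl2l12 fell by 0.61 ± 0.12 and 0.57 ± 0.19 (limma, adjusted p = 6.44e-04 and 0.0264). The list's median 4 h value was -0.40, beside -0.22 for all tested probe sets.

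Of the death receptors and caspases 13 of 18 were measured, none changed at 1 h, and at 4 h 2 rose and 4 fell, 46.2% together, with a median of -0.24. With code range as a blocking factor the counts were 3 and 5, beside 42.9% of all tested probe sets (12.6% rose and 30.3% fell). The added genes were Mlkl at 0.61 (limma, adjusted p = 0.0126) and Tradd at -0.29 (limma, adjusted p = 0.0206), also named after their values were seen. The death receptor Fas rose by 3.60 ± 0.54 (limma, adjusted p = 6.62e-05) and Cycs, which encodes cytochrome c, by 0.54 ± 0.15 (limma, adjusted p = 0.0105). Casp9, the initiator caspase of the mitochondrial pathway, had -1.33 ± 0.25 (limma, adjusted p = 6.22e-04), Casp6, an effector caspase, -1.25 ± 0.21 (limma, adjusted p = 2.21e-04), and Casp8, the partner of FLIP, -0.79 ± 0.20 (limma, adjusted p = 0.00452). Of the inhibitors of apoptosis 5 of 5 were measured and 2 (40.0%) rose at 4 h, Birc3 by 1.96 ± 0.38 and Birc2 by 0.87 ± 0.23 (limma, adjusted p = 6.75e-04 and 0.00790); their median was -0.10.

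Of genes that regulate the members 12 of 14 were measured, none changed at 1 h, and at 4 h 3 rose and 2 fell, 41.7% together, with a median of 0.06. Stat5a, Rela, an NF-kB subunit, and Atf4, a stress transcription factor, rose by 1.66 ± 0.19, 1.13 ± 0.16 and 0.95 ± 0.17 (limma, adjusted p = 4.23e-06, 3.33e-05 and 3.23e-04). Foxo3 and Foxo1, which encode FOXO factors, fell by 1.43 ± 0.21 and 0.54 ± 0.12 (limma, adjusted p = 5.33e-05 and 0.00175). Among 11724 other named genes, the log2 values most like those of Bmf 1454880_s_at over the 18 arrays were those of Lpar6 (Pearson r = 0.98), BC005537 (0.97), Nxpe4 (0.97), Calhm2 (0.96) and Mat2b (0.96). For Cflar 1424996_at they were Ptgs2 (0.98), Zc3h12c (0.98), 2500002B13Rik (0.97), Gpr84 (0.97) and Snx18 (0.97). All arrays of all times enter these correlations, which are given as descriptions.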

How the data were processed

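Total RNA of 18 samples was measured on Affymetrix 3' expression arrays. The deposited table holds the authors' linear signal intensity per probe set, made with MAS5 and GCOS per the submitters' processing notes, which give no versions. Each array has a trimmed mean (percentiles 2 to 98) of 500.0, so arrays had been scaled by the authors to a common level, while their medians were 86.2 to 108.1 at 0 h and 1 h and 74.7 to 87.5 at 4 h. The number of arrays limits the precision. No 2 arrays were identical, and log2 values of arrays of the same time correlated at 0.92 to 0.96.

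From these signals log2(signal + 16) was computed. After 64 control probe sets were left out, 25804 of 45037 (57.3%) lay above the median of their own array on at least 4 of 18 arrays and were tested, with limma 3.58.1 in R 4.3.3, time as the factor and Benjamini-Hochberg adjustment over all tested probe sets. The threshold was an adjusted p of 0.05. Comparisons between code ranges, and tests of whether responses differ between them, had time and range in the model. Single differences between Cflar probe sets were tested with exact permutations of 6 against 6 arrays. Code was tested on simulated data.

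Gene names come from the platform annotation, where 932 probe sets carry several symbols and were not named. Promoter windows come from RefSeq. The members and lists (other BCL2 family, death receptors and caspases, inhibitors of apoptosis, regulators of the members, and markers of 8 cell types) were chosen with earlier results of these data known. Every member probe set was reported. For each list up to 3 genes past the threshold in each direction at 4 h were named, and for Bmf and 1 Cflar probe set the 5 genes with the highest correlation. Alternatives were other pseudocounts, filters, normalizations and variance models, the code range as a block, only the times compared, and arrays or ranges left out.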

Additional observations from a re-analysis of the deposited data

Results flagged for a closer look

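Dixon's test at the 95% level was applied to the 6 arrays of each time for the 31 tested probe sets, 93 groups in all, and 8 groups had an array far from the others. Chance gives such a result in about 1 in 20 groups. In t1h replicate 3 (code 36), Bcl2 1422938_at was high at 90.1 against 9.09 to 23.5 on the other 1 h arrays, Bmf 1422995_at was low at 10.8 against 51.1 to 86.2, and Bid 1448560_at was low at 28.3 against 178 to 371. Bcl2l1 1420888_at was low in t1h replicate 4 (code 33), at 294 against 509 to 703. At 0 h, Bmf 1458325_x_at was low in t0 replicate 5 (code 18), at 17.1 against 126 to 159. Bid 1447873_x_at was low in t0 replicate 3 (code 35), at 63.1 against 141 to 196, and Cflar 1453482_at was low in t0 replicate 2 (code 32), at 24.8 against 100.3 to 131. At 4 h, Cflar 1425687_at was low in t4h replicate 2 (code 37), at 657 against 1015 to 1224. The 62 tests of a difference in response between code ranges gave 0 calls, which does not show that responses were alike.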

How the results depend on the processing

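No paired analysis was possible because the labels number no replicates: the numbers used here follow the order of the samples and pair none. The array code range served as a block instead. Of the member probe sets called at 1 h against 0 h, 3 in the main setting, there were 5 with the block, 1 with only the times compared, 5 without the range 12 to 22, 1 (a fall) without 32 to 37 and 0 without 44 to 54. At 4 h against 0 h the block gave 17 calls in place of 11. At 4 h against 1 h, 13 calls became 8 without the range 32 to 37 and 5 without 44 to 54. The block ended no call in the comparisons of times. With no filter on dim probe sets the count for 44 to 54 fell to 3 against 12 to 22 and to 2 against 32 to 37. Leaving out single arrays gave 2 to 6 calls at 1 h (6 without t1h replicate 6), 8 to 12 at 4 h against 0 h, 10 to 15 at 4 h against 1 h, 7 to 11 and 6 to 10 for 32 to 37 and 44 to 54 against 12 to 22, 2 to 7 for 44 to 54 against 32 to 37, and 0 for both tests of a difference in response. The change of Cflar 1424996_at against 1425687_at from 0 h to 4 h was 0.42 and from 1 h to 4 h 0.52 after quantile normalization (exact permutation test, adjusted p = 0.104 for both), and from 0 h to 1 h it turned from -0.06 to 0.095 with a pseudocount of 64. The cause was not tested where no smaller number of arrays or genes is named. Of 5091 values of single probe sets under an alternative, 4792 stayed on their side of the threshold. A call was lost in 211, gained in 88, and 0 turned direction with a call. Values without a call could change sign, as that of Bbc3 at 1 h against 0 h, which ran from -0.20 to 0.11. Signals near or below the array medians limit what can be said of the dim Bcl2, Bcl2l1 and Bmf probe sets.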
